A study of Mus musculus with 6 samples.

Results

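Motile cilia carry mucus out of the airways, and the genes that build them were followed here in whole lungs of mice with and without Nogo-A and Nogo-B, the longer proteins made from Rtn4. The 36 genes were chosen by name for their place in the motile axoneme or in the transport system that builds it. Transcription factors that switch it on and genes of ciliated cells generally were also taken. Although earlier results of these data were known, no measured value was used to choose the 36 genes. Of these, 34 were measured among 20240 genes compared, each by its brightest probe among those that stood well above background on 3 or more arrays, and all 34 did so on all 6. The remaining 2, Dnaic2, an intermediate chain of the outer dynein arm, and Cdhr3, a cadherin-related surface protein of ciliated cells, did not stand well above background anywhere, so they have no measured difference.

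The lungs came from untreated male mice aged 8 weeks, 3 labelled wild type (numbers 11, 12 and 13) and 3 labelled Nogo-A/B knockout (numbers 1, 11 and 12). The design text calls the 3 lungs of a group individual biological replicates. RNA from each lung was hybridised in 1 colour to its own array of 60-base oligonucleotides. Signals below are on the log2 scale, with the 75th percentile of each array set to 0, so a difference of 1 is a doubling, and levels of different genes are not compared because each probe binds with its own strength. In bulk lung RNA, fewer ciliated cells and less RNA per ciliated cell cannot be told apart. The labels name no strain background, so genotype and any difference of background cannot be told apart.

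A motile cilium is a ring of doublet microtubules around a central pair. Dynein arms on the doublets pull one doublet along the next, while radial spokes, doublet links and the central apparatus pattern that sliding into a beat. The proteins are carried into the growing cilium by intraflagellar transport, and RFX factors, together with the forkhead factor Foxj1, switch on the genes in multiciliated cells such as those of the conducting airways, which lie beside the secretory club cells.

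The transcription factors of the RFX family bind X-boxes, and these letters were looked for in the promoters because RFX factors are themselves among the 36 genes. RefSeq promoters (build GRCm38.p6, 250 bases before to 50 after the start of the gene) were found for 32 of the 36 members and not for Ift81, Rsph1, Rsph4a and Tppp3. The RFX half-site GTTGCC, on either strand, lay in 21 of the 32, or 65.6%, against 14.1% of 27025 genes with a promoter. A full X-box written loosely, as GTNNCC, then 3 bases of any kind, then GNAAC, on either strand, lay in 6 of 32, or 18.8%, against 2.49% of all genes. The 6 were Enkur, Hydin, Ift57, Pifo, Spag16 and Tekt4, and an X-box that starts or ends with the half-site counts under both. The forkhead letters TGTTTAC were present in 3 of 32 (9.38%), namely Mlf1, Ak7 and Sntn, against 4.05% of all genes. Such a match describes letters and is no evidence of binding. The 4 stretches below show the X-box in capitals, all upstream of the start and written on the strand of the gene. They lie at chr1:69826847-69826900 for Spag16, which builds the central apparatus, at chr3:106001535-106001588 on the minus strand for Pifo, a protein of the ciliary base, at chr16:49699187-49699240 for Ift57, a transport subunit, and at chr17:25471410-25471463 for Tekt4, a tektin. In Ift57 the match is read on the opposite strand, and the capitals of Spag16 and Ift57 begin with the half-site.
Spag16: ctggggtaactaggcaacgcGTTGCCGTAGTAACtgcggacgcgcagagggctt
Pifo: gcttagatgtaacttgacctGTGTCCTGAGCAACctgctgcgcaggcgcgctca
Ift57: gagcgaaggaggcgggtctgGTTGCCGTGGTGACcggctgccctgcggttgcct
Tekt4: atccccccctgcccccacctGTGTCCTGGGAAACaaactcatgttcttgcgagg

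The signal of a member is the signal of its oligonucleotide, and 2 probes that cross an exon boundary are shown here as examples. The probe for Ccdc113, a coiled-coil protein of the axoneme, spans chr8:94135116-94140322 of the build mm7 used by the array. The probe for Pifo spans chr3:105818703-105819389 (mm7, minus strand) and is shown because the array files name it only by an older clone name, 1700027A23Rik. The symbol that the selection gave for Pifo, AI118078, belongs to Tmem266 in RefSeq, and that given for Cfap126, 1110017D15Rik, is a separate gene, so both were set apart and the RefSeq matches were used.
Ccdc113: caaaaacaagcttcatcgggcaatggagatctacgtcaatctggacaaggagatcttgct
Pifo: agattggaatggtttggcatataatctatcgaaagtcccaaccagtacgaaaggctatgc

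The arrays were scanned on 2 days. Scan day 1 held wild type 13 and knockouts 1 and 11, and scan day 2 held wild types 11 and 12 and knockout 12. Wild type 13 and knockout 1 shared slide 1, the 3 arrays of day 2 shared slide 3, and knockout 11 was alone on slide 2. On each array 68.9% to 78.0% of probes stood well above background, and no member probe was saturated. The Rtn4 locus checked the labels in part. The probe for its transcript AK047982 stood above background in 3 of 3 wild-type lungs (-2.82 ± 0.41, SD, n = 3) and in 0 of 3 knockout lungs (-8.34 ± 0.21, SD, n = 3). The sources used here do not say whether that transcript lies in the deleted stretch. The 2 brightest Rtn4 probes stayed above background in 3 of 3 knockouts, and the brightest read 1.59, 1.53 and 2.28 in wild types 11, 12 and 13 against 1.01, -0.79 and -1.87 in knockouts 1, 11 and 12. The fourth probe stood above background on 1 wild-type array only. Lung cell types were present by their markers, with 5 of 5 alveolar type 2 and 6 of 6 club cell genes measured. Of 7 ciliated cell markers outside the members, 5 were measured, Foxj1, Tmem212, Fam183b, Ccdc78 and Cfap45, while Ccdc153 and Dnah3 did not pass the filter on low values.

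The first comparison asked whether cilium genes differed by genotype. None of the 34 measured members passed the test, at an adjusted p under 0.05 (limma, Benjamini-Hochberg over 20240 genes) or at an unadjusted p under 0.05. The background was 0% of all genes at the adjusted and 0.954% at the unadjusted threshold. The fitted difference, knockout minus wild type, was above 0 for 24 members and below 0 for 10, with a median of 0.05 and a range from -0.42 (Rfx3) to 0.75 (Mlf1). Over all genes 54.4% were above 0 and the median was 0.02. The split of directions differed with the scaling, for members and for all genes: 16 of 34 were above 0 with arrays scaled to their median (44.2% of all genes), 17 in the authors' values (47.0%) and 19 after quantile normalization (46.6%). For 26 members the 95% interval lay wholly between a halving and a doubling. For the other 8, Cfap126, Dnah5, Rsph4a, Lrrc23, Spag6, Hydin, Rfx3 and Mlf1, it reached beyond.

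**Figure D1:**
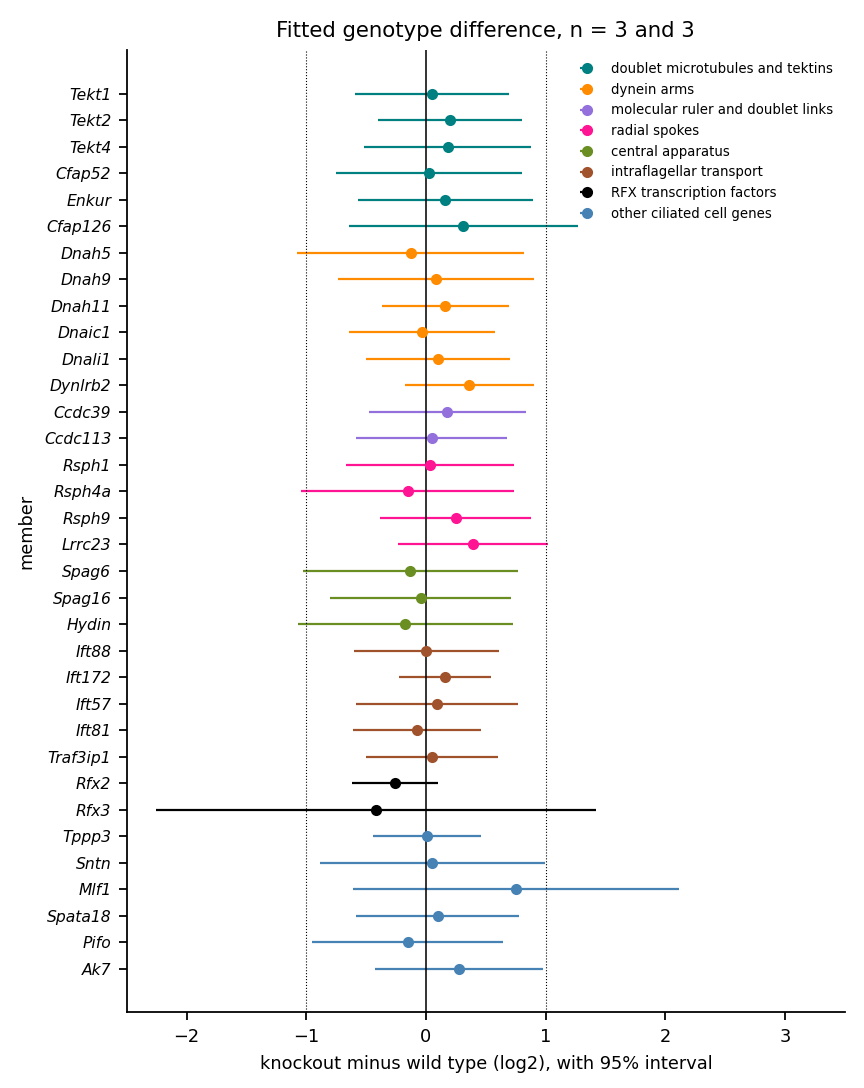
Fitted knockout minus wild type difference (x axis, log2) of the 34 measured members (y axis), coloured by role; points are limma estimates from 3 against 3 arrays, bars are 95% intervals, and dotted lines mark a halving and a doubling. All 34 intervals hold 0, from the narrowest for Rfx2 (-0.62 to 0.10) to the widest for Rfx3 (-2.26 to 1.42).

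Tektins and other proteins of the doublet wall come first in the order of the axoneme. Tekt1, a filament protein of the doublet lumen, read 1.64, 1.88 and 2.18 in wild types 11, 12 and 13, and 1.51, 2.04 and 2.29 in knockouts 1, 11 and 12. Its lowest and highest values both lay in the knockout, and the fitted difference was 0.05 (SE 0.27). The dimmer Tekt1 probe gave -0.04. Tekt2, another tektin, read 0.54, 0.65 and 0.80 in the wild type, against 0.39, 1.01 and 1.18 in the knockout, where knockouts 11 and 12 lay above all wild types and knockout 1 below them. Cfap126, the doublet protein also called Flattop, had the widest wild-type spread of the 6, at 1.13, 1.31 and 2.57, against 1.90, 2.09 and 1.96 in the knockout. Wild type 13 alone lay above the knockout lungs, and the difference of 0.31 (SE 0.39) did not pass the test. Without wild type 13 the difference was 0.76, at an adjusted p of 0.658 by limma. The remaining 3, Tekt4, Cfap52 and Enkur, had differences from 0.02 to 0.18.

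Of the dynein genes, the one with the largest fitted difference and the smallest p was Dynlrb2, a light chain of the roadblock family. It read 2.996, 3.27 and 3.62 in wild types 11, 12 and 13 and 3.45, 3.66 and 3.86 in knockouts 1, 11 and 12. The groups overlapped through wild type 13, and the difference was 0.36 (SE 0.22, adjusted p = 0.9997 by limma). The motor chains of the outer arm, Dnah5, Dnah9 and Dnah11, differed by -0.13, 0.08 and 0.16, and the intermediate chain Dnaic1 by -0.04. Dnali1, a light intermediate chain of the inner arm, differed by 0.10. Dnah5 read -0.09, 0.00 and 0.69 in the wild type, against -0.43, -0.17 and 0.81 in the knockout, so both groups held 1 high lung and 2 lower ones. The dimmer Dnah5 probes went the other way, with knockout minus wild type at 0.10 and 0.37, and so did the dimmer Dnah9 probe, at -0.13.

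Links between doublets and the spokes also overlapped between genotypes. Ccdc39, which with Ccdc40 forms the ruler that sets the axonemal repeat, read -2.42, -2.26 and -1.69 in the wild type, against -2.27, -1.93 and -1.63 in the knockout. Ccdc113 read 0.39, 0.73 and 1.04 against 0.44, 0.75 and 1.11, nearly the same 3 values in each genotype. Lrrc23, a leucine-rich repeat protein of the radial spoke, had the largest difference of the spoke genes, 0.39 (SE 0.26). Its values were 1.60, 1.91 and 2.23 in the wild type, against 1.96, 2.33 and 2.64 in the knockout, with wild type 13 above knockout 1. The spoke head genes Rsph1, Rsph4a and Rsph9 differed by 0.03, -0.15 and 0.25.

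By their brightest probes, all 3 genes of the central apparatus had fitted differences below 0, and none passed the test. Hydin, the large protein of a central pair projection, read -0.28, -0.16 and 0.57 in wild types 11, 12 and 13 and -0.70, -0.13 and 0.44 in knockouts 1, 11 and 12. Knockout 1 was the lowest and wild type 13 the highest, and the difference was -0.17 (SE 0.37). Spag6 and Spag16 differed by -0.13 and -0.05. Their dimmer probes went the other way, with knockout minus wild type at 0.36 for Spag6, on chromosome 2, and 0.06 for Spag16. The brightest Spag6 probe belongs to the copy on chromosome 16, now called Spag6l in RefSeq and nearly identical to the copy on chromosome 2, so its signal may come from either.

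Transport genes also overlapped between genotypes. The median SD over the 3 wild-type lungs was 0.10 for the 5 genes of intraflagellar transport, against 0.40 over all members and 0.26 over all genes tested, but Ift57 had 0.49. Over the knockout lungs the median SD was 0.34 for transport genes, 0.33 for members and 0.32 for all genes. Ift172, a subunit of the anterograde train, read 3.02, 3.16 and 3.21 in the wild type, against 3.18, 3.40 and 3.29 in the knockout. Wild type 13 lay just above knockout 1, and the difference was 0.16 (SE 0.16). The dimmer Ift172 probes went the other way, with knockout minus wild type at -0.06, -0.17 and -0.04. The other transport genes, Ift88, Ift57, Ift81 and Traf3ip1, which is also called Ift54, had differences from -0.07 to 0.09 by their brightest probes. The dimmer Ift57 probes gave 0.16 and -0.17.

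Rfx2 and Rfx3 encode the factors that bind X-boxes. Rfx2 read -1.96, -2.12 and -1.99 in the wild type, against -2.31, -2.24 and -2.28 in the knockout. It was the only member of the 34 whose groups did not overlap, and 4.19% of all genes had groups that did not overlap. The difference was -0.26 (SE 0.15, unadjusted p = 0.131 and adjusted p = 0.9997 by limma). Rfx3 read -1.04, -0.99 and -2.78 in the wild type, against -1.39, -3.44 and -1.24 in the knockout, so wild type 13 and knockout 11 lay far below the other 4 lungs. Its 2 dimmer probes, -5.36 and -3.75 on wild type 13, were both at their highest there. Foxj1, the forkhead regulator that is no member, read 2.53, 2.47 and 2.78 in the wild type, against 2.47, 2.54 and 2.59 in the knockout, a difference of -0.06 (SE 0.16) with a range of 0.32 over the 6 lungs.

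The remaining genes mark ciliated cells or parts of the cilium outside the core axoneme. Tppp3, a tubulin-binding protein, read 4.22, 3.89 and 3.91 in the wild type, against 3.88, 3.95 and 4.22 in the knockout, with a difference of 0.01. Mlf1, myeloid leukaemia factor 1, read -0.20, 0.10 and 0.87 in the wild type, against 2.19, 0.45 and 0.38 in the knockout. Knockout 1 alone lay above wild type 13, and the difference of 0.75 (SE 0.56) was the largest of any member without passing the test. Sntn, a protein of the ciliary tip, Spata18, a mitochondrial quality factor, Pifo and Ak7, an adenylate kinase of cilia, differed by 0.05, 0.10, -0.15 and 0.27. The dimmer Ak7 probe went the other way, at -0.15.

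**Figure D2:**
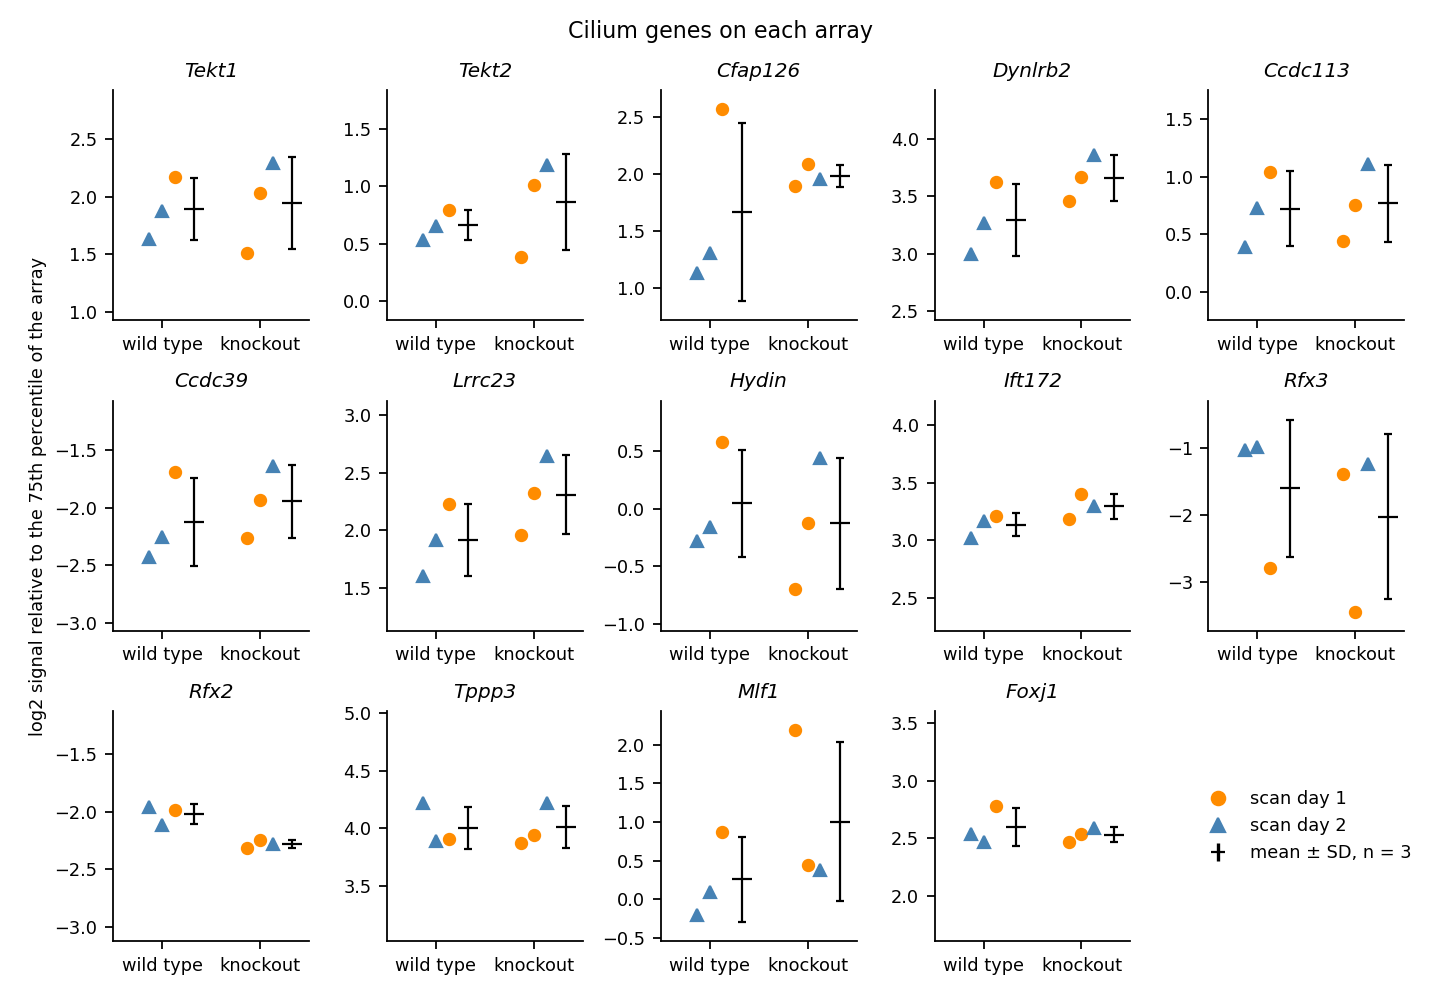
Log2 signal relative to the 75th percentile of the array (y axis) in wild-type and knockout lungs (x axis) for 13 members and Foxj1; circles are arrays of scan day 1, triangles of scan day 2, and bars show the mean ± SD of 3 lungs. The y axis has its own range in each panel, and the groups overlap in every panel but that of Rfx2.

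Although the genotypes overlapped, the members moved together from lung to lung. Wild type 13 and knockout 12 were high, wild type 11 and knockout 1 were low, and the range over the 6 lungs had a median of 0.89 over members and 0.80 over all genes. With each gene set relative to its own mean, the median over members was -0.36, -0.12 and 0.31 in wild types 11, 12 and 13 and -0.28, 0.06 and 0.36 in knockouts 1, 11 and 12. Over all genes these medians lay between -0.03 and 0.08. In 29 of 34 members the lowest lung was wild type 11 or knockout 1 and the highest was wild type 13 or knockout 12, a pattern chosen after the values were seen and held by 18.7% of all genes. The lowest lung was wild type 11 for 19 members, knockout 1 for 14 and knockout 11 for Rfx3. The highest was wild type 13 for 14, knockout 12 for 15, knockout 11 for Ift172 and Ak7, and another lung for Rfx2, Rfx3 and Mlf1.

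**Figure D3:**
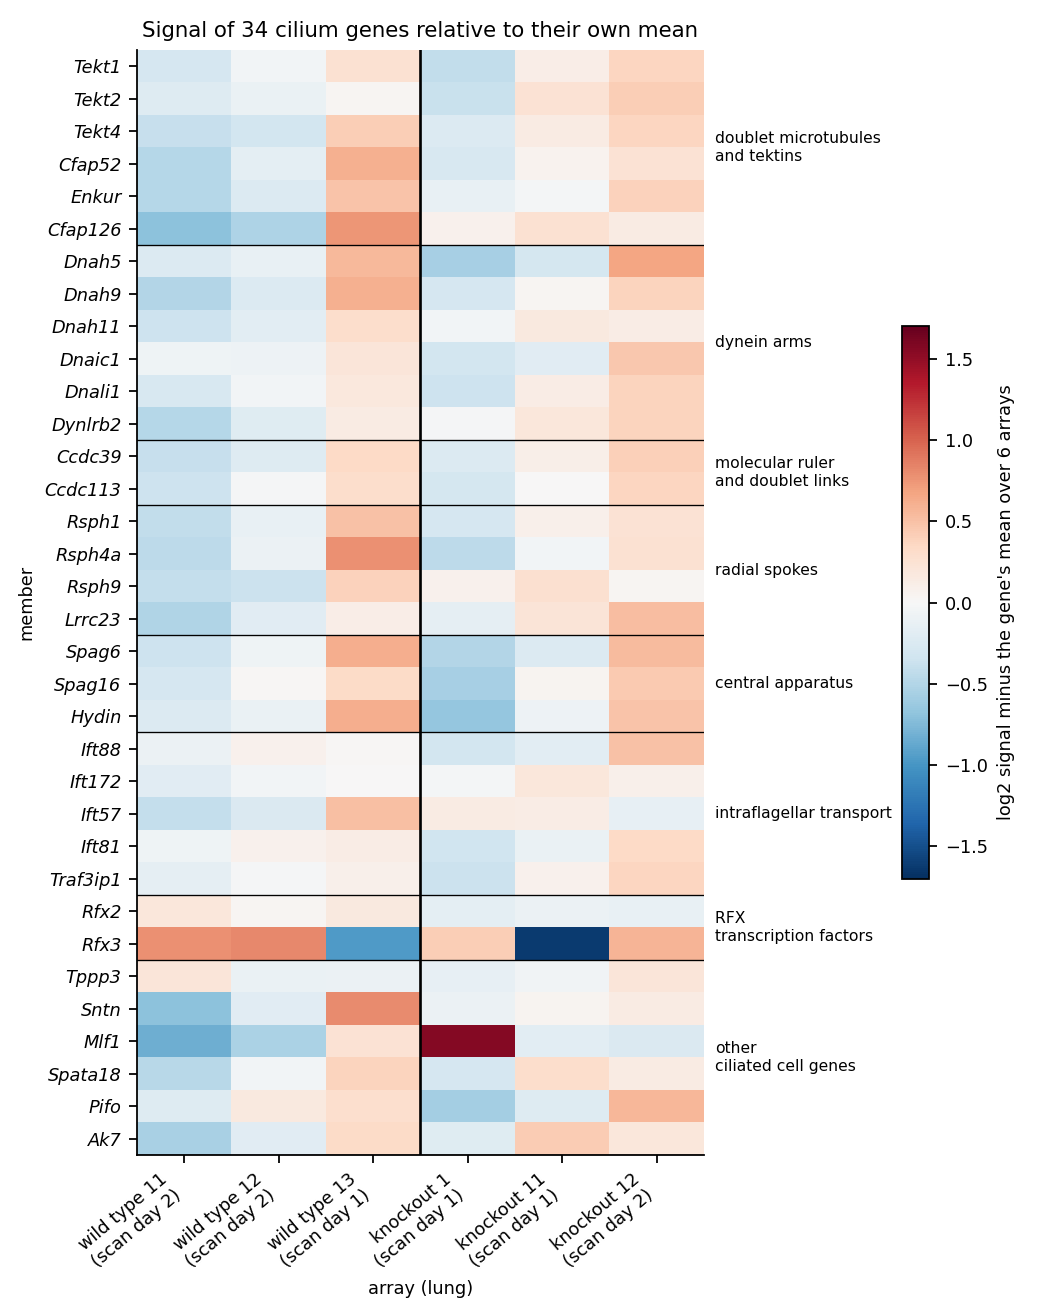
Log2 signal of each member minus its mean over the 6 arrays (colour), with arrays in columns by genotype and members in rows by axonemal role. Wild type 13 and knockout 12 are red and wild type 11 and knockout 1 blue for most structural genes, with medians over members of 0.31, 0.36, -0.36 and -0.28, while Rfx2, Rfx3, Tppp3 and Mlf1 differ from that pattern.

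Over the 6 lungs, 24 of 34 members had a Pearson correlation above 0.8 with the median profile of the members, against 36 of 80 other cilium genes and 5.10% of all genes. A member counts in its own median, and all points share their array, so these are descriptions. When each member was set against the median of the others, the correlation had a median of 0.86 and fell below 0.5 for 5 genes. These were Rfx3 (-0.45), Rfx2 (-0.12), Mlf1 (-0.08), Tppp3 (0.07) and Ift57 (0.49). Among the 10 genes outside the members most like their median profile were Dbndd1, Iqcg, Zfp839, Ap4m1, Dmkn, Plin5, Tsnaxip1, Iffo1 and Cfap57, with correlations from 0.989 to 0.998 over 6 arrays. Iqcg, a protein of the doublet links, was the only one of the 10 on the list of other cilium genes.

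The fitted genotype differences of most members had opposite signs on the 2 scan days. Each day held 1 of the 2 high lungs and 1 of the 2 low lungs named above. With 1 lung against 2 on each day, the change of sign cannot be assigned to the high lungs rather than the low ones. No member passed the adjusted threshold on either day alone by limma, and 4 and 18 of 34 were reached at an unadjusted p under 0.05 on days 1 and 2 (2.19% and 19.8% of all genes). On day 1 the members' median difference was -0.39, with 30 of 34 lower in the knockout, and on day 2 it was 0.55, with 32 of 34 higher. In 29 members the difference was below 0 on day 1 and above 0 on day 2, against 40.2% of all genes. Each value rests on 1 lung in 1 of the groups, wild type 13 on day 1 and knockout 12 on day 2. Both knockouts of day 1 lay below wild type 13 in 26 members (76.5%, and 36.3% of all genes). Knockout 12 lay above both wild types of day 2 in 32 members (94.1%, and 52.9% of all genes). On slide 1 knockout 1 was lower than wild type 13 in 32 members with a median difference of -0.55, against 52.1% of all genes and a median of -0.02. With scan day as a block the members' median difference was 0.07.

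The interaction of genotype and scan day asked per gene whether the difference itself differed between days, with 2 residual degrees of freedom. It was positive for 32 of 34 members, with a median of 0.95 against 0.12 over all genes. At an unadjusted p under 0.05, 15 of 34 members were reached, all positive, where 11.6% of all genes were reached and 7.75% with a positive sign. The count of members reached was 2 without wild type 11 (3.5% of all genes), 9 without wild type 12 (4.4%) and 29 without knockout 11 (25.3%). It also differed with the scaling, at 8 with arrays scaled to their median (11.2%), 20 after quantile normalization (11.1%) and 22 in the authors' values (11.8%). No member passed at an adjusted p under 0.05 by limma, and 0% of all genes did. The smallest adjusted p of a member was 0.382. Dnah5 had the smallest unadjusted p, with an interaction of 1.85 (SE 0.28), made of -0.99 on day 1 and 0.86 on day 2. Spag6 followed with 1.74 (SE 0.33), and Hydin and Rsph4a had 1.65 and 1.56.

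Among the roles of the members, the central apparatus had the widest swing, with medians of -0.99 on day 1 and 0.66 on day 2 over its 3 genes. Doublet wall genes had -0.51 and 0.65, dynein genes -0.37 and 0.63, spoke genes -0.41 and 0.53, and transport genes -0.27 and 0.35. Ruler and doublet link genes had -0.43 and 0.63, and other ciliated cell genes -0.29 and 0.50. Outside the members the order differed, with -0.89 and 0.68 for other dynein chains and -0.75 and 0.51 for other central apparatus genes. Rfx2 and the brightest Rfx3 probe did not follow, with -0.29 and -0.24 for Rfx2 and 0.37 and -0.23 for Rfx3. For Rfx3 this rests on that probe alone, since its 2 dimmer probes were both highest on wild type 13. Without the RFX and transport genes, the other 27 members had medians of -0.46 and 0.58. Differences between roles were not tested.

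**Figure D4:**
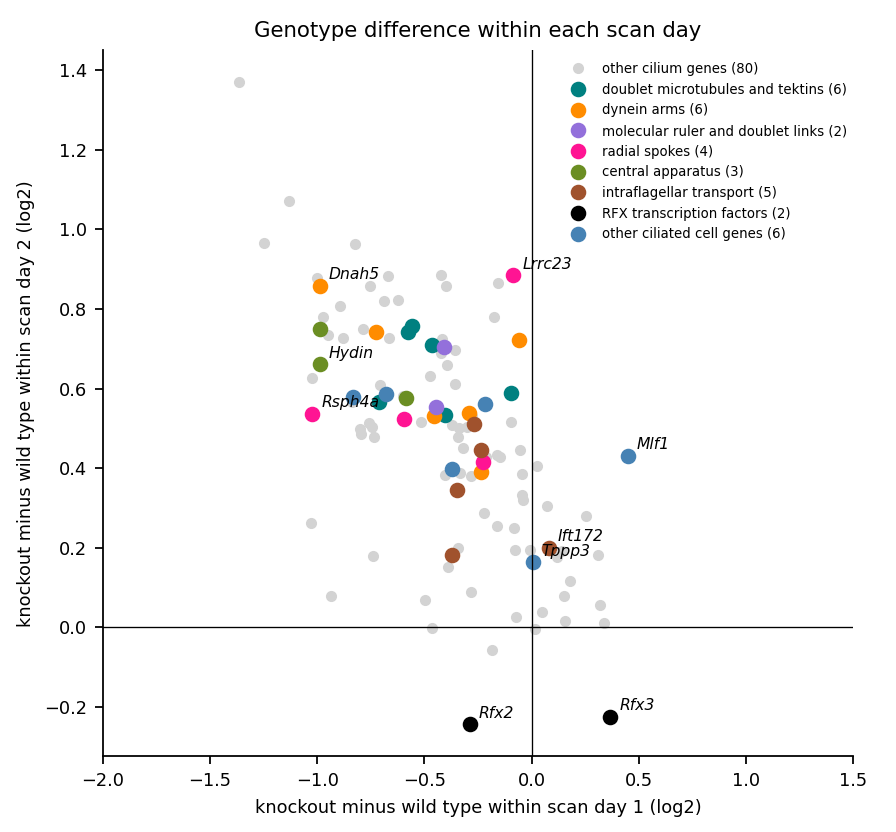
Knockout minus wild type difference within scan day 1 (x axis, log2) and within scan day 2 (y axis, log2), with 34 members coloured by role and 80 other cilium genes in grey. Most points lie at the upper left, lower in the knockout on day 1 and higher on day 2. This holds for 29 of 34 members, 65 of 80 other genes and 40.2% of all genes, while Rfx2 and Rfx3 lie below 0 on day 2.

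No member passed the test for scan day itself. With genotype in the fit, 0 of 34 members passed an adjusted p of 0.05 for scan day by limma, while 10.5% of all genes did. At an unadjusted p under 0.05, 2 members were reached (Ift57 and Rfx3) and 27.4% of all genes. That count of members was 14 without knockout 12 (27.4% of all genes) and 7 without wild type 13 (23.4%). The median difference, day 2 minus day 1, was -0.04, with 16 members higher and 18 lower on day 2. It was -0.60 without knockout 12 and 0.48 without wild type 13. Without knockout 1, Rfx3 passed by its brightest probe (difference 1.95, adjusted p = 0.02 by limma). Both dimmer Rfx3 probes went the other way, with every array of day 1 above every array of day 2. Without knockout 12, Cfap126 passed (-1.35, adjusted p = 0.0485 by limma).

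Other genes of the motile cilium, 93 listed by role and 80 measured, did not pass the genotype test either. These genes, too, were listed with earlier results of these data known. Their median genotype difference was 0.09, with 57 above 0 and 23 below, and 0 passed an adjusted or an unadjusted p of 0.05 by limma. The 6 with the smallest p were Ift43, Ift20, Stk36, Kif17, Rsph3a and Bbs5. Ift43, a transport subunit, had 2.95, 2.89 and 2.95 in the wild type, against 3.07, 3.33 and 3.20 in the knockout. Its groups did not overlap, and the difference was 0.27 (SE 0.15, unadjusted p = 0.128, adjusted p = 0.9997 by limma). Ift20 and Bbs5, with differences of 0.22 and 0.18, also had groups that did not overlap. That made 3 of 80 genes, where 4.19% of all genes had groups that did not overlap. Within days the 80 genes had medians of -0.36 and 0.48, and 65 (81.2%) were lower on day 1 and higher on day 2, against 40.2% of all genes. For scan day, 4 of the 80 passed at an adjusted p under 0.05 by limma, against 10.5% of all genes. All 4 were lower on day 2, namely the dynein heavy chain gene Dnah7b and the central apparatus genes Spag17, Cfap54 and Cfap46. Dnah7b, Spag17 and Cfap46 had differences of -1.62, -2.01 and -2.76, while the Cfap54 probe stood above background on 3 of 3 arrays of day 1 and 0 of 3 of day 2, so no size is given for it.

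Markers of cell types are given beside this pattern. Ciliated cell markers outside the members had medians of -0.51, -0.23 and 0.40 in wild types 11, 12 and 13 and -0.11, 0.23 and 0.27 in knockouts 1, 11 and 12. Their summed level, in units of the 75th percentile signal, ran from 15.1 to 24.4 over wild-type lungs and from 16.6 to 22.1 over knockout lungs, and that of the members from 66.5 to 89.7 and from 73.5 to 94.1. Club cell markers, all 6 measured, had a median genotype difference of 0.35, with -0.14 within day 1 and 0.67 within day 2. Scgb3a1, a secretoglobin, went the other way, with groups that did not overlap and a difference of -2.86 (SE 1.19, unadjusted p = 0.0517, adjusted p = 0.9997 by limma). Their summed level ran from 540 to 743 over wild-type and from 652 to 977 over knockout lungs, highest on knockout 12. Goblet cell markers, 5 of 6 measured and without Muc5ac, were highest on wild type 13 for all 5 and lowest on knockout 1 for 4. Their sum ran from 1.34 to 3.96 and from 0.326 to 1.33. All 5 had fitted genotype differences below 0 with a median of -0.76. By limma 2 of the 5 were reached at an unadjusted p under 0.05 (0.954% of all genes), Tff2 (-3.70) and Agr2 (-0.75), and 0 at the adjusted threshold. Neutrophil markers, 5 of 5 measured, all had differences below 0 with a median of -1.12, with -0.44 within day 1 and -2.26 within day 2. By limma 3 of the neutrophil markers were reached at an unadjusted p under 0.05 (0.954% of all genes) and 0 at the adjusted threshold (0% of all genes). Their sum ran from 79.1 to 268.8 over wild-type and from 41.7 to 178.0 over knockout lungs. Airway cartilage markers, 4 of 8 measured, had a median of -0.20, with sums from 2.65 to 3.94 and from 1.76 to 4.42. Testis germ cell markers, whose tissue also expresses axonemal genes, had 4 of 5 measured, a median of 0.01 and sums from 0.232 to 0.286 and from 0.213 to 0.318. Of 4 cardiac muscle markers, 3 passed the adjusted threshold for scan day by limma, against 10.5% of all genes, and the median day difference was -3.09. Nppa did not pass, and its lowest value, -4.05, was on knockout 1 of day 1. The cardiac sum ran from 4.09 to 41.5 over wild-type and from 1.92 to 31.2 over knockout lungs. The part of these cell types in the lung-to-lung pattern was not tested.

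**Figure D5:**
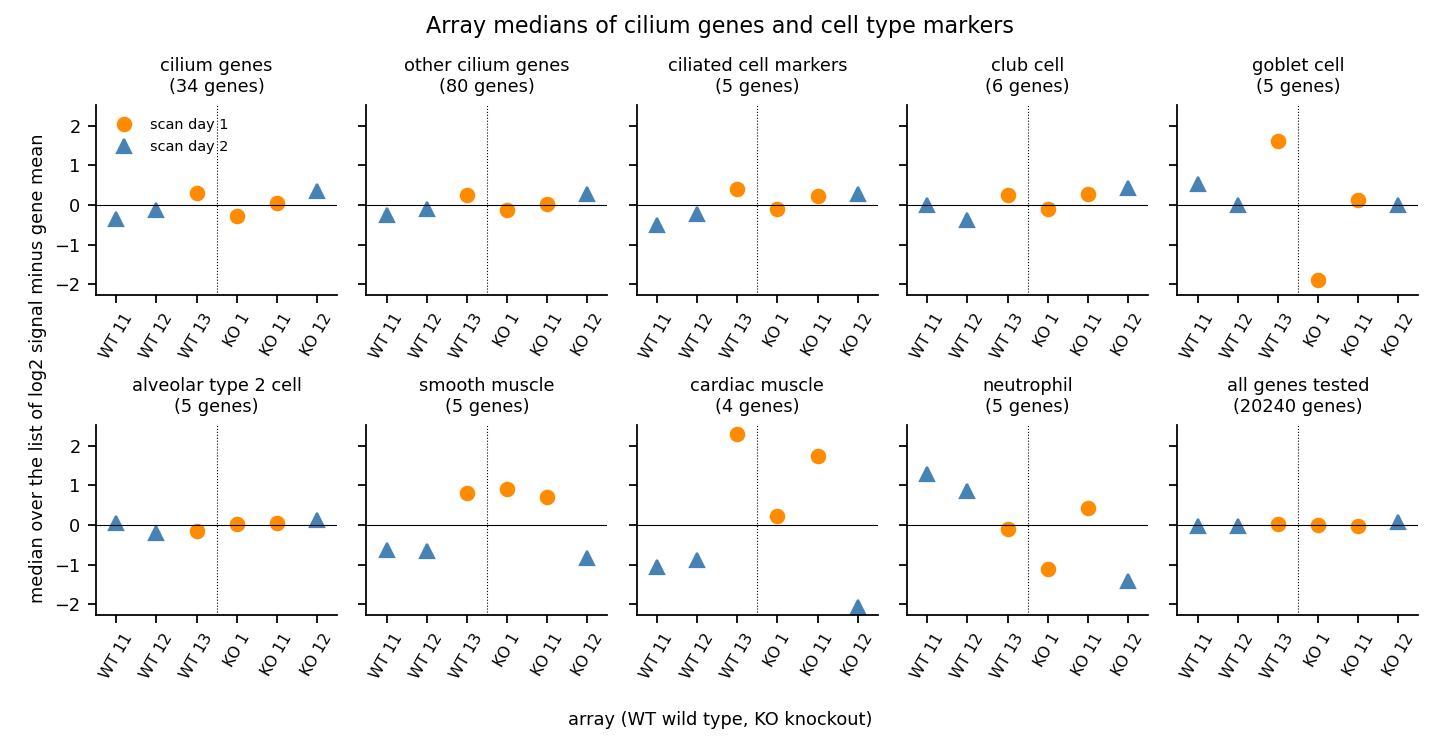
Median over each list of the log2 signal minus the gene's own mean (y axis) on each of the 6 arrays (x axis), for cilium genes, markers of other cell types and all genes tested; circles are scan day 1 and triangles scan day 2. Cilium genes are highest on knockout 12 (0.36) and wild type 13 (0.31), while smooth and cardiac muscle markers separate by scan day.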

How the data were processed

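Total RNA of 6 lungs was labelled with Cy3 and hybridised to Agilent arrays, 1 lung per array, per the labels' protocols. The deposited scanner files hold an intensity per spot, which per the file headers Feature Extraction had detrended after background subtraction, putting a surrogate in place of low values, and had not scaled between arrays. These name version 9.5.1.1, and the submitters' processing notes name 9.1. The authors' table of log2 values was used as an alternative. Its column medians lay between 8.087 and 8.090, and it tracked the scanner's raw median signal per spot (Spearman 0.99996 to 0.99998 across probes, which are not replicates). Its log base was read from the values, and its normalization is not stated.

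Each array held 43379 spots without controls, for 41174 probes. Flagged spots were left out, which dropped 30 probes, and spots of a probe were averaged. The processed signal was divided by the 75th percentile of its array, which ran from 1148 to 2488, and taken to log2. The 20240 genes kept their brightest probe among those well above background on 3 or more of 6 arrays. Names came from RefSeq for 32734 probes and from the array files for 8440. Genotype, scan day and their interaction were fitted in R 4.3.3 by lmFit and eBayes of limma 3.58.1, with two-sided p-values adjusted after Benjamini-Hochberg across the 20240 genes, and the code was checked on simulated data. The p-values rest on each gene's spread between these 6 lungs, which eBayes draws toward the spread of all genes tested. For Rfx2 the SE of 0.15 was larger than either group SD (0.085 in the wild type, 0.03 in the knockout). A p-value of such a gene is thus no measure of its own spread alone. With only 3 lungs per group, all p-values are imprecise. Figures were drawn with matplotlib 3.10.9.

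The members and all lists were chosen with earlier results of these data known. Values on each array are given, within each role, for the brightest member, that with the smallest p and that with the largest fitted difference, and for Foxj1; Dnah5 and those under the interaction were added after their values were seen. Of the other cilium genes the 6 with the smallest p were named, and of similar genes the 10 with the highest correlation, 1 of which is not reported here. The numbers 11 and 12 occur in both groups. Lungs of the same number deviated from their group means with correlations of -0.24 (11) and 0.42 (12), across genes, so the numbers were not taken to pair the lungs.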

Additional observations from a re-analysis of the deposited data

How the results depend on the processing

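Across the alternatives 0 of 34 members passed the adjusted threshold for genotype, and the smallest adjusted p of any member in any of them was 0.188 by limma. The members' median genotype difference was -0.39 within scan day 1, 0.55 within scan day 2 and 0.41 with the replicate block. The block uses only the lungs numbered 11 and 12 in both groups. For the other cilium genes these values were -0.36, 0.48 and 0.34. The members' array medians had a spread of 0.33. Each within-day difference sets 1 lung against 2, and whether it exceeds the spread between lungs was not tested. The count of members at an unadjusted p under 0.05 rose from 0 to 4 of 34 on scan day 1 alone (2.19% of all genes), 18 on scan day 2 alone (19.8%), 3 with array weights (20.1%) and 2 with the replicate block (3.19%). Pairing by number changed no call at the adjusted threshold. Leaving out each lung in turn gave a median genotype difference from -0.08 to 0.24, and from -0.06 to 0.23 for the other cilium genes. It was below 0 without wild type 11 (-0.08) or knockout 12 (-0.08). Members at an unadjusted p under 0.05 then numbered 0 to 3, the 3 being Cfap126, Dynlrb2 and Rsph9 without wild type 13 (7.39% of all genes). For scan day the median ran from -0.60 to 0.48 and members past the adjusted threshold from 0 to 1. With the mean of all probes of a gene 1 member passed for scan day, Traf3ip1 (-1.24, adjusted p = 0.0175 by limma). That mean is over 2 probes, the brightest, with a day difference of 0.16, and a dim one. The dim probe, described below, read higher on every array of day 1 than on any of day 2, and the cause of this was not tested. The interaction's median ran from 0.81 to 1.12 and its count of members at an unadjusted p under 0.05 from 2 (without wild type 11) to 29 (without knockout 11), and it could not be fitted without wild type 13 or knockout 12, since 1 group is then missing from a day. Taking the older symbols of the selection literally gave a median of 0.07 over 28 genes, and leaving out RFX and transport genes 0.08 over 27, both settings chosen after seeing the data. Scaling moved the median of all genes between -0.03 and 0.06, a range that holds the members' own median genotype difference of 0.05. Of 714 values of single members under the alternatives, 131 had the other sign, and none was past the threshold. The 95% intervals of the 3 against 3 design had a median width of 1.36 on the log2 scale over members, which limits the differences it could show.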

Other observations

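Among the members 12 had more than 1 measured probe, and the 17 additional probes, all of them dimmer, gave a check that the choice of the brightest probe did not use. With the median profile of the members, 5 of the 17 had a correlation above 0.8 over the 6 arrays, against 5.1% of all genes. These were 1 probe each for Ak7, Dynlrb2, Ift172 and Tekt1 and 1 of 2 for Dnah5. The lowest correlations were 0.06 for an Rfx3 probe, 0.18 for Dnah9, 0.19 for Traf3ip1 and 0.32 for the other Dnah5 probe. The profile includes the brightest probe of the same gene, so the 2 are not independent. The dim probe for Traf3ip1 read -6.22, -5.59 and -5.66 on the arrays of scan day 2 (wild types 11 and 12, knockout 12) and -3.15, -3.08 and -3.17 on those of scan day 1, so every array of day 1 lay above every array of day 2. Its bright probe, from 0.58 to 1.31, showed no such separation. The dim Rfx3 probe for the transcript AK041120 likewise read -5.90, -6.01 and -6.25 on day 2 and -3.75, -3.89 and -4.36 on day 1. The brightest Rfx3 probe went the other way, with every array of day 1 below every array of day 2. Among the other cilium genes, the probe for the central apparatus gene Cfap46 read -4.92, -4.93 and -4.07 on day 2 and -1.37, -2.04 and -2.20 on day 1. These probes were singled out after their values were seen, and scan day and slide cannot be told apart for them, since slide 3 holds all arrays of day 2.

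The 2 genes set apart from the members differed from each other. 1110017D15Rik read 1.90, 2.11 and 2.79 in wild types 11, 12 and 13 and 2.07, 2.48 and 2.61 in knockouts 1, 11 and 12, lowest on wild type 11 and highest on wild type 13, as many members were. Tmem266 read -4.38, -4.23 and -4.21 and -3.87, -5.05 and -3.84, lowest on knockout 11. Neither passed the genotype test, with differences of 0.12 and 0.02 (adjusted p = 0.9997 by limma for both).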
